A study of Mus musculus with 12 samples.

Results

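The genes of the cytosolic ribosomal proteins were followed in splenic B cells of mice that had met 1 of 3 classes of CpG oligodeoxynucleotide (ODN). Members were the known genes whose symbol has the form Rpl or Rps with a number, with Rpsa, Rplp0, Rplp1 and Rplp2 added and pseudogenes and ribosomal S6 kinases dropped. This gave 84 of the 19682 known genes, 52 of the large and 32 of the small subunit. Of these, 81 exceeded 1 FPKM in at least 3 of the 12 libraries and were tested, 49 of the large and 32 of the small subunit. FPKM is fragments per kilobase of transcript and per M mapped fragments (M, mega). The other 3, Rpl3l, Rpl39l and Rpl32l, reached at most 1.02, 0.25 and 0.56 FPKM in any library, and the first and second are known as forms of muscle and of testis.

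The CpG-A, CpG-B and CpG-C groups held B cells kept for 24 h with 1 µM of the ODN of that class, and the control group held B cells kept for 24 h with none. All 4 groups shared RPMI-1640 medium with fetal bovine serum and the source, spleens of BALB/c mice killed between post-natal days 42 and 49, and had 3 libraries each. CpG ODNs are short synthetic DNAs whose unmethylated CpG motifs are the ligand of the endosomal receptor TLR9, and in B cells they can act as a mitogen. Nothing used here says whether the 3 libraries of a group came from separate cultures or animals, or how the B cells were purified. The p-values therefore cover the spread among these libraries alone, which may be technical.

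Ribosomal proteins and ribosomal RNA form the small subunit, which reads the mRNA, and the large subunit, which joins amino acids. A resting lymphocyte is small and translates little, and entry into growth is known for a build-up of ribosomes, driven in part by Myc and by the kinase complex mTORC1. Most ribosomal protein mRNAs start with a C followed by a run of pyrimidines, the TOP tract, through which mTORC1 and Larp1 control their translation and their stability.

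Annotated starts were searched for a run of at least 8 pyrimidines within 20 bases before to 50 bases after the start, in the RefSeq promoter table (build GRCm38.p6). Of the 81 members, 61 had an entry there, with 72 windows between them, and 49 of these windows (68.1%) held such a run on the gene's strand, against 25.4% of all 32851 windows. The following 30-base windows, 5′ to 3′ on the gene's strand, show the run in capitals for members that the values below turn on. The first 3 belong to genes that rose in all classes and Rps27 to a gene that did not. Rps27l and Rpl22l1 are paralogs that rose. In the last 2, Rpl7l1 and Rpl10l, the longest run within the stretch searched is below 8 bases. For Rpl28 and Rps27 the window is that of the RefSeq gene, while the deposited position of their FPKM lies at a copy elsewhere, as given below.
Rpl27a, chr7:109519186-109519215, + strand: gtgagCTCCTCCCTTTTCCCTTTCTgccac
Rpl28, chr7:4792953-4792982, + strand: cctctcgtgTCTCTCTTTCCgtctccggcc
Rps18, chr17:33955647-33955676, - strand: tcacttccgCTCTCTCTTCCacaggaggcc
Rps27, chr3:90213631-90213660, - strand: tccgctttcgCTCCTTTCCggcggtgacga
Rps27l, chr9:66946064-66946093, + strand: ctcctctccaCTCCTCCCCgccgcctctat
Rpl22l1, chr3:28805499-28805528, + strand: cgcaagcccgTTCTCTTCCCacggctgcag
Rpl7l1, chr17:46782659-46782688, - strand: cctctctaccccgCCCggtgaggctgcgca
Rpl10l, chr12:66284394-66284423, - strand: acagaaatttggCCTCCattttgcggctgg
The run sat at 20, 11, 11, 9, 9, 10, 3 and 5 bases in these windows, in the order printed. Printed windows can reach beyond the stretch searched. Pyrimidines there stay in small letters even where they form a longer run, as in Rpl7l1. Over the whole promoter of 300 bases and both strands, CCGGAAG, the core bound by ETS factors, lay in 36.1% of member windows and in 8.86% of all windows. CTTTCC, searched on the gene's strand only, in the stretch searched for runs and free to overlap a run, lay in 25% against 3.24%. These are matches of letters and not shown to be sites.

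Before the results, 3 libraries have to be named, library 3 of CpG-A and libraries 2 and 3 of the control. This set was found after the values were seen. Rpl37rt, a retrotransposed copy of Rpl37, stood at 1.43 FPKM in CpG-A library 3 and at 0.78 and 1.19 in control libraries 2 and 3, against 48.2 to 111 in the other 9 libraries. Rpl34-ps1, a pseudogene, stood at 0.88, 3.07 and 2.30 FPKM in the 3 libraries, against 35.6 to 85.5 in the other 9. With the set as a term in the same limma fit, 50 of 15853 rows were higher and 152 lower in the 3 libraries, among them 6 members higher and 1 lower. Among the 6 were Rpl35a (log2 difference 1.30), Rpl15 (0.59), Rps26 (0.51), Rps28 (0.50) and Rps15a (0.46), and the 1 was Rps18 (-0.85). The difference splits the CpG-A and control groups and lies within neither CpG-B nor CpG-C. Counts of members called against the control and against CpG-A are therefore also given with the set as a term. Leaving out the 3 libraries leaves a lone control library, assumed to vary like the other groups, and fewer of all rows were then called against the control. A call against the control lost in that fit need not depend on the set, so the members' medians are given there. Against CpG-A, counts are given.

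**Figure D1:**
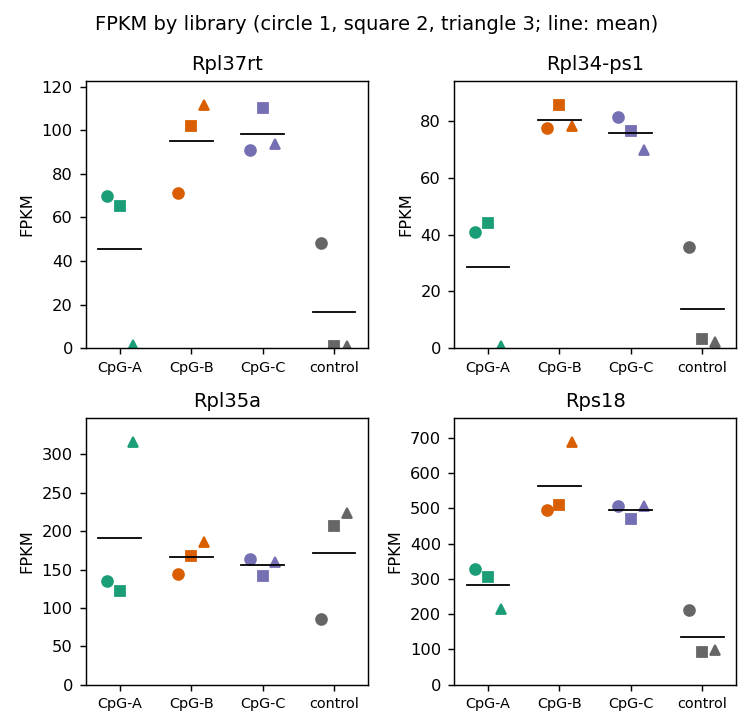
FPKM (y axes, from 0) of Rpl37rt, Rpl34-ps1, Rpl35a and Rps18 in each library of the 4 groups (x axes), with the group mean as a line. CpG-A library 3 and control libraries 2 and 3 lie near 0 for Rpl37rt and Rpl34-ps1, above the other libraries of their group for Rpl35a and below them for Rps18.

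Depth, estimated from the spacing of low values, was 21.2 to 22.9 M fragments with CpG-A, 24.8 to 25.3 with CpG-B, 24.7 to 26.3 with CpG-C and 14.4 to 17.6 in the controls. All 8 B cell markers were above 1 FPKM on average in each group, and their sums were 3226 to 3351 FPKM with CpG-A, 3192 to 3650 with CpG-B, 2694 to 3468 with CpG-C and 4231 to 4533 in the controls. With CpG-A 6 of the 8 were called lower and 0 higher, and 5 were lower with the library set as a term. With CpG-B and with CpG-C 4 were lower and 1 higher (Ms4a1, 0.50 ± 0.10 and 0.39 ± 0.10, named after its values were seen). Of all rows 42.1%, 51.8% and 51.3% were lower and 23.6%, 25.7% and 26.1% higher with CpG-A, CpG-B and CpG-C. The lower calls of B cell markers with CpG-B and CpG-C were thus near the share of all rows. Of 5 monocyte and macrophage markers only Adgre1 was tested, and the sum of the 5 was 11.6 to 12.6 FPKM in CpG-A cells, 0.37 to 1.17 in CpG-B cells and 0.77 to 1.86 in CpG-C cells, against 6.23 to 8.34 in the controls. The CpG-A and control sums were nearly all Adgre1, which averaged 11.8 FPKM with CpG-A and 6.51 in the controls. Lyz2, Csf1r, Cd14 and Fcgr1 went the other way, at 0.08, 0.097, 0.087 and 0.04 FPKM with CpG-A. Their control means were 0.34, 0.24, 0.29 and 0.11. T cell markers (4 of 5 listed in the table) summed to 1.56 to 2.46, 0.19 to 0.55 and 0.31 to 0.82 FPKM, against 2.41 to 3.62, and erythroid and platelet markers to 1.04 to 1.9, 0.11 to 0.25 and 0.2 to 0.39, against 3.74 to 5.3. Neutrophil markers stayed at or below 0.69 FPKM. These sums differ between the groups, and their part in the results below was not tested.

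Ribosomal protein genes took a larger part of the transcriptome after each class of ODN. In the order of the libraries they made up 19.8%, 19.6% and 20.8% of the summed FPKM with CpG-A, 25.4%, 25.7% and 27.3% with CpG-B and 24.6%, 24.7% and 24.4% with CpG-C, against 15.4%, 16.1% and 16.1% in the controls. No library of any group overlapped those of another group, and the lowest CpG-B share lay above the highest CpG-C share by less than the range within CpG-B. Large-subunit genes held 11.2% to 11.7% of the sum in CpG-A cells, 14.9% to 16.0% in CpG-B cells and 14.3% to 14.4% in CpG-C cells, against 8.36% to 8.69% in the controls. Small-subunit genes held 8.43% to 9.09%, 10.5% to 11.3% and 10.0% to 10.4% in these 3 groups, against 7.04% to 7.47% in the controls. Loci without a gene name, a class of their own in the table, moved the other way, with 6.80% to 7.42%, 7.73% to 8.29% and 7.43% to 7.49% of the sum in the 3 ODN groups, against 9.75% to 13.1% in the controls, and their part in the member shares was not tested. Over known genes alone the members' share was 21.2% to 22.3%, 27.5% to 29.8% and 26.4% to 26.7%, against 17.3% to 18.6% in the controls. In such bulk data more mRNA per cell and a larger share of cells rich in these mRNAs cannot be told apart, and FPKM shows no absolute amount per cell.

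**Figure D2:**
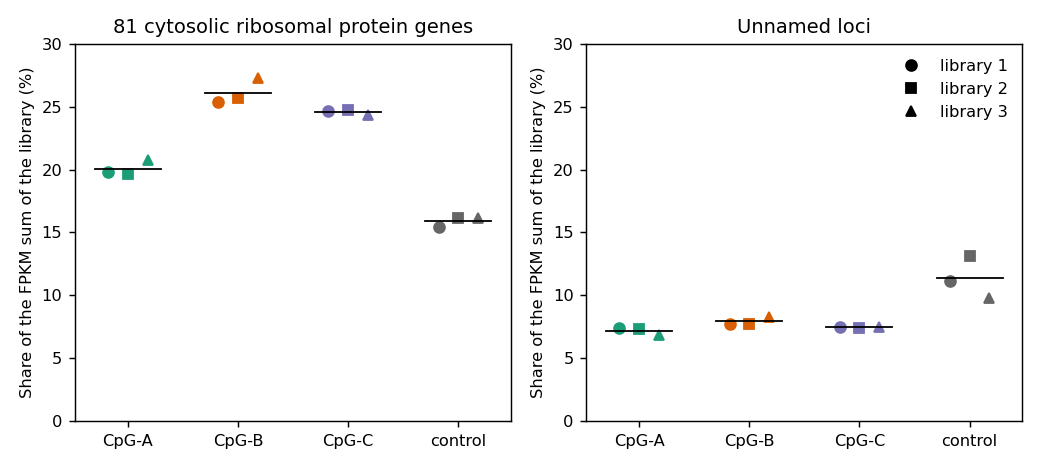
Share of the summed FPKM of each library (y axes, %) taken by the 81 ribosomal protein genes (left) and by the loci without a gene name (right) in each group (x axes), with the group mean as a line. The ribosomal protein share is 19.6% to 20.8% in CpG-A cells, 25.4% to 27.3% in CpG-B cells and 24.4% to 24.7% in CpG-C cells, against 15.4% to 16.1% in the controls.

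Levels ranged widely among the 81 genes, from a mean of 0.457 to 2986 FPKM over the 12 libraries, with a median of 1391. Of these, 56 averaged at least 1000 FPKM, 71 at least 200 and 5 under 20. The 5 lowest were Rps6, Rpl5, Rpl26, Rpl21 and Rpl10l. Rpl10l is known from testis, while the proteins of the other 4 are present once in every ribosome, so their low FPKM does not mirror the protein. Near-identical copies are common in this family: 63 of the 84 symbols have RefSeq pseudogenes named after them, 316 in all, and reads shared with a copy may have been split or assigned elsewhere. For 6 members, among them Rpl11, Rpl12, Rpl28, Rps12 and Rps27, the deposited position lies at a copy and not at the RefSeq gene. Rps27, for example, is placed at Rps27rt on chr9:114982371-114982739 (mm10), and Rpl28 at Rpl28-ps1 on chr1:128038527-128039022 (mm10). Their values, and those of Rps6, Rpl5, Rpl21 and Rpl26, are therefore uncertain as measures of a single gene.

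CpG-A raised most ribosomal protein genes by a moderate amount. Of the 81 members, 68 were higher and 1 lower with CpG-A than in the controls (limma, Benjamini-Hochberg adjusted p under 0.05), against 23.6% higher and 42.1% lower of all 15853 rows and 32.8% and 22.1% of the 10860 known genes tested. The 1 lower member was Rpl10l, tested only because its controls were high, as given below. The members' median log2 change was 0.50, against -0.16 over all rows and 0.05 over known genes. Medians were 0.54 for the large and 0.43 for the small subunit. With libraries rescaled by median of ratios, upper quartile or to a common sum, 64, 57 and 59 members were higher. The members' medians were then 0.51, 0.39 and 0.36, against -0.15, -0.25 and -0.28 over all rows. All CpG-A libraries lay above all control libraries in 69 members, against 28.5% of all rows. With the library set as a term, 76 members were higher and 1 lower. Without the 3 libraries the members' median log2 change was 0.52, against -0.17 over all rows.

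With CpG-B, 76 members were higher and 2 lower than in the controls, against 25.7% higher and 51.8% lower of all rows and 34.8% and 35.3% of known genes. The median log2 change was 1.05, against -0.31 over all rows and 0.00 over known genes, with 1.07 for the large and 1.01 for the small subunit. Higher calls made up 33.1% of all calls, and 44.0% or 21.8% when libraries were rescaled by median of ratios or to a common sum, with 77 and 72 members higher. The members' medians were then 1.30 and 0.75, against -0.10 and -0.57 over all rows. Libraries did not overlap, with CpG-B above, in 76 members and 27.4% of all rows. The set term gave 77 members higher and 1 lower. Without the 3 libraries the members' median was 1.07, against -0.34 over all rows.

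CpG-C gave 73 members higher and 2 lower than in the controls, against 26.1% higher and 51.3% lower of all rows and 35.7% and 34.5% of known genes. The median log2 change was 0.94, against -0.31 over all rows and 0.01 over known genes, with 0.99 for the large and 0.86 for the small subunit. Higher calls made up 33.8% of all calls, and 44.0% or 23.5% under the same 2 rescalings, with 77 and 71 members higher. The members' medians were then 1.17 and 0.68, against -0.11 and -0.53 over all rows. In 76 members, and 27.3% of all rows, every CpG-C library lay above every control library. With the set term 77 members were higher and 1 lower, and without the 3 libraries the members' median was 0.96, against -0.33 over all rows. The 3 comparisons share their control libraries, and 68 members were called higher in each of them. Of all rows at most 23.6%, the share higher with CpG-A, can be higher in each of the 3. The 5 members called higher in none were Rps27, Rps29, Rpl35a, Rpl26 and Rpl10l, of which Rps29 was chosen after its values were seen.

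**Figure D3:**
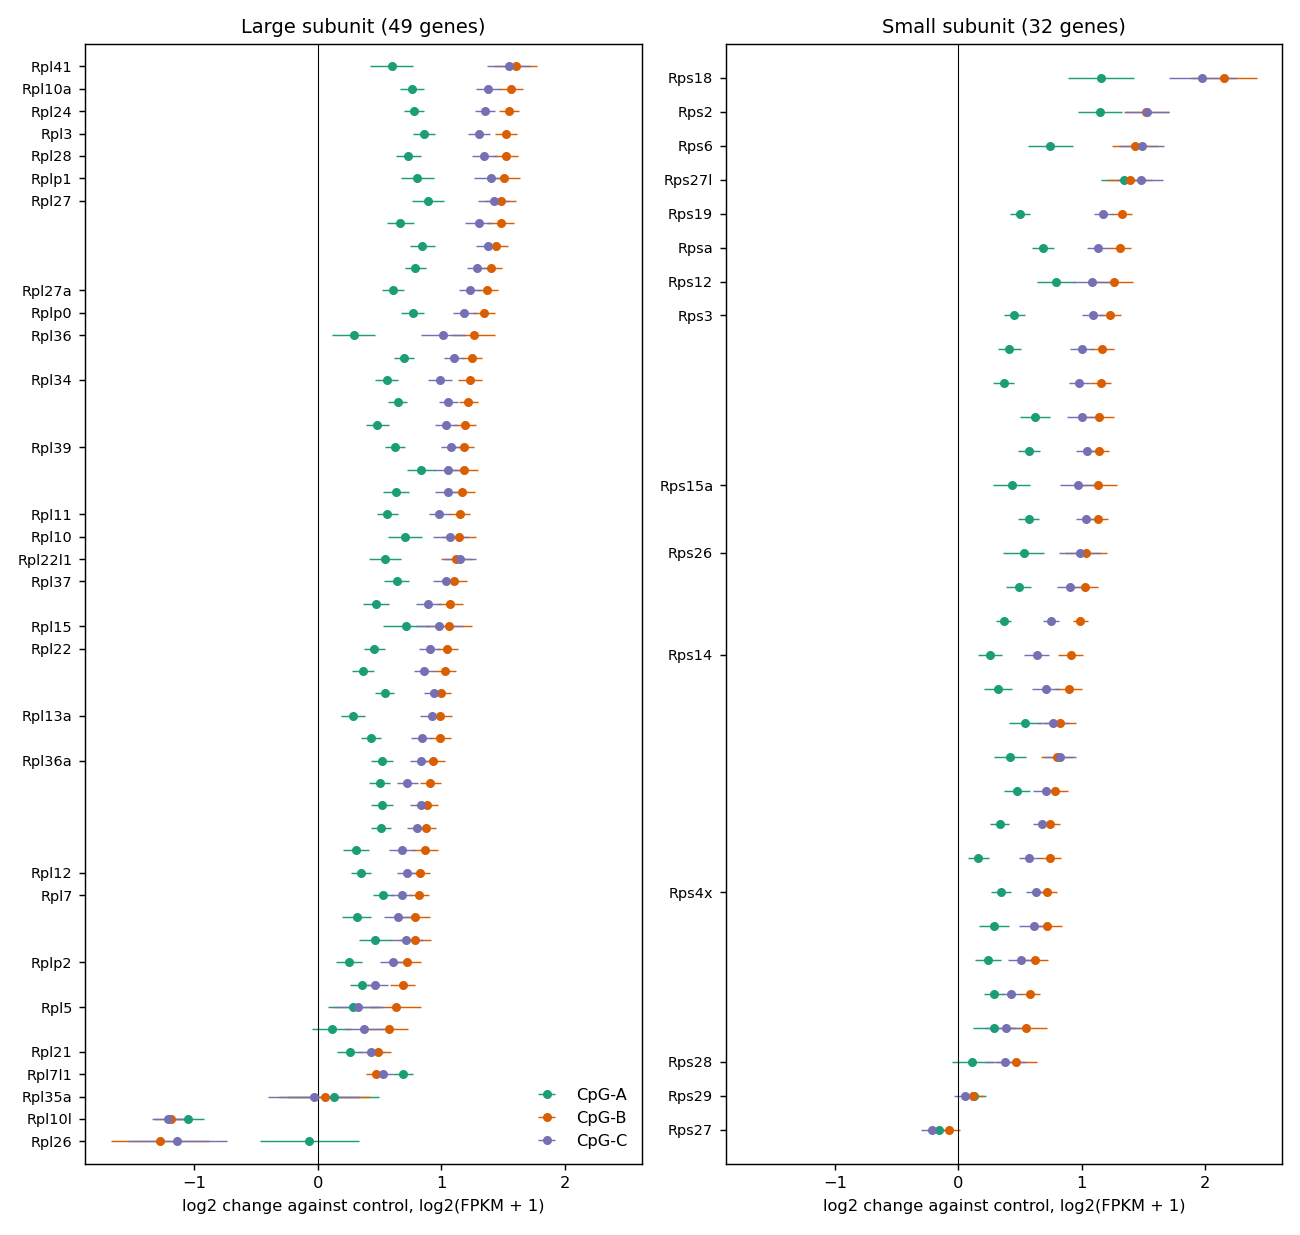
log2 change against the control on the log2(FPKM + 1) scale (x axes) of the 49 large-subunit and 32 small-subunit genes tested, each a row ordered by its CpG-B value, with the SE as a bar and a label for genes named in the text. Most genes stand between 0 and 1 with CpG-A and between 0.5 and 1.6 with CpG-B and CpG-C, and Rps27, Rps29, Rpl35a, Rpl26 and Rpl10l stand near or below 0 with CpG-B and CpG-C.

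Among small-subunit proteins, Rps3, which lines the mRNA entry site, was at 1470.3, 1464 and 1463 FPKM with CpG-A, at 2395, 2368 and 2780.1 with CpG-B and at 2233, 2227 and 2368 with CpG-C, against 998, 1161 and 1055 in the controls. No ODN library overlapped a control library, and the CpG-A libraries lay between the controls and the other classes. Its log2 changes were 0.45 ± 0.09, 1.23 ± 0.09 and 1.09 ± 0.09 (SE; adjusted p = 0.000663, 2.22e-07 and 5.23e-07), or 1.37, 2.35 and 2.12-fold on mean FPKM. Rpsa, also known as a laminin receptor, averaged 1481 ± 31.0 FPKM in CpG-A cells, 2288 ± 299 in CpG-B cells and 2017 ± 24.6 in CpG-C cells, against 919 ± 9.26 in the controls (SD, n = 3 each).

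Rps18, a protein of the head of the small subunit, had the highest change of all members with CpG-B and CpG-C. It was at 327, 306 and 216 FPKM with CpG-A, at 494, 509 and 687 with CpG-B and at 505, 470 and 505 with CpG-C, against 212, 92.5 and 98.3 in the controls. CpG-A library 3 stood just above control library 1, and the lower values in both groups were those of the library set described above. The log2 changes of Rps18 were 1.15 ± 0.27, 2.15 ± 0.27 and 1.98 ± 0.27, with the set as a term 0.87, 1.59 and 1.41, and without its libraries 0.58, 1.39 and 1.21, all called.

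Rps2, which lies at the mRNA channel, rose as well, to 539, 495 and 580 FPKM with CpG-A, 576, 622 and 950 with CpG-B and 611, 639 and 876 with CpG-C, against 220, 251 and 257 in the controls. Library 3 of CpG-B and of CpG-C was well above the other 2 of its group, while changes were called in all classes (1.15 ± 0.18, 1.52 ± 0.18 and 1.53 ± 0.18). Rps6, the substrate of the S6 kinases downstream of mTORC1, was listed at only 8.47 to 11 FPKM in CpG-A cells, 12.8 to 21.4 in CpG-B cells and 14.9 to 18.3 in CpG-C cells, against 4.05 to 6.08 in the controls. The groups did not overlap with the controls, and its log2 changes were 0.75 ± 0.19, 1.43 ± 0.19 and 1.48 ± 0.19, the first not called without the 3 libraries of the set (0.72, adjusted p = 0.0742). Rps15a rose to 99.1 ± 24.1 FPKM in CpG-A cells, 159 ± 15.3 in CpG-B cells and 142 ± 4.09 in CpG-C cells, against 72.3 ± 10.3 in the controls (SD, n = 3 each). Its CpG-A call was lost when single libraries were left out: without CpG-A library 3 the log2 change was 0.25 (adjusted p = 0.103) in place of 0.43, and without control library 1 it was 0.31 (adjusted p = 0.104). Rescaling by upper quartile (0.32, adjusted p = 0.0847) or to a common sum (0.29, adjusted p = 0.0879) lost it too. With the library set as a term it was called (0.59, adjusted p = 0.000148), and without the set's 3 libraries the change was 0.49.

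Of the large subunit, Rpl3, a protein near the peptidyl transferase centre, was at 1227, 1224 and 1249 FPKM with CpG-A, at 1814, 1871 and 2206 with CpG-B and at 1643, 1608 and 1805 with CpG-C, against 704, 635 and 701 in the controls. No library of any group overlapped those of another, though the lowest CpG-B library stood just above the highest CpG-C library. Its log2 changes were 0.86 ± 0.09, 1.53 ± 0.09 and 1.31 ± 0.09 (adjusted p = 1.39e-05, 5.45e-08 and 1.71e-07). Rpl41, the smallest protein of the ribosome, had the largest large-subunit change with CpG-B and CpG-C, at 1.61 ± 0.17 and 1.55 ± 0.17, and 0.60 ± 0.17 with CpG-A. It was at 1414, 1511 and 1866 FPKM with CpG-A, 2840.1, 2985 and 3823 with CpG-B and 2795, 3077 and 3347 with CpG-C, against 815, 1294 and 1087 in the controls.

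Rpl10a, at the mobile stalk that guides spent tRNA, changed by 0.77 ± 0.10, 1.56 ± 0.10 and 1.38 ± 0.10 with CpG-A, CpG-B and CpG-C. Rpl24, part of a bridge between the subunits, changed by 0.78 ± 0.08, 1.55 ± 0.08 and 1.35 ± 0.08. Rpl27, whose CpG-A change of 0.89 ± 0.13 was the highest of the large subunit there, changed by 1.48 ± 0.13 with CpG-B and 1.43 ± 0.13 with CpG-C. All of these passed the test in each class.

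Rpl5 and Rpl11, which with 5S rRNA form a particle that binds MDM2, gave unequal results. Rpl11 rose to 1577 ± 18.9 FPKM in CpG-A cells, 2375 ± 219 in CpG-B cells and 2113 ± 52.2 in CpG-C cells, against 1067 ± 56.1 in the controls. Rpl5 was listed at 5.92, 4.32 and 8.87 FPKM with CpG-A, 8.58, 6.23 and 9.70 with CpG-B and 7.31, 5.43 and 6.40 with CpG-C, against 4.27, 5.23 and 5.08 in the controls. Only the CpG-B change of Rpl5 was called (log2 change 0.63 ± 0.21, adjusted p = 0.0145), and it was lost without CpG-B library 3 (0.51, adjusted p = 0.0588) or without control library 1 (0.56, adjusted p = 0.0516). Its changes with CpG-A and CpG-C were 0.29 ± 0.21 and 0.33 ± 0.21. The first was called without CpG-A library 2 (0.50, adjusted p = 0.0457) or with the set term (0.44, adjusted p = 0.0499). The second was called with the set term (0.64, adjusted p = 0.0166). Rpl10, which joins the large subunit late in its assembly, rose to 1733 ± 151 FPKM in CpG-A cells, 2366 ± 455 in CpG-B cells and 2241 ± 264 in CpG-C cells, against 1060.1 ± 89.7 in the controls, and its CpG-A call was lost without the set's libraries (0.64, adjusted p = 0.0527). Rpl13a, in human myeloid cells also part of a complex that silences mRNAs, changed by 0.28 ± 0.10, 0.99 ± 0.10 and 0.92 ± 0.10, and its CpG-A call was lost without CpG-A library 1 (0.26, adjusted p = 0.0669), without control library 1 (0.25, adjusted p = 0.0704), without control library 3 (0.26, adjusted p = 0.0723) and without the set's libraries (0.37, adjusted p = 0.0984).

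The stalk proteins, which draw elongation factors to the ribosome, rose to different degrees. Rplp0, the base of the stalk, changed by 0.77 ± 0.09, 1.35 ± 0.09 and 1.19 ± 0.09 with CpG-A, CpG-B and CpG-C. Rplp1 reached 2527 ± 201 FPKM in CpG-A cells, 4147 ± 772 in CpG-B cells and 3823 ± 313 in CpG-C cells, against 1447 ± 154 in the controls, changes of 0.81 ± 0.13, 1.51 ± 0.13 and 1.40 ± 0.13. Rplp2, which pairs with Rplp1, stood at 1894 ± 153, 2631 ± 224 and 2422 ± 37.9 FPKM, against 1594 ± 207 in the controls (SD, n = 3 each). Its changes were 0.25 ± 0.11, not called (adjusted p = 0.0584), 0.73 ± 0.11 and 0.61 ± 0.11, both called. The CpG-A change was called without CpG-A library 2 (0.31, adjusted p = 0.0444) or control library 2 (0.35, adjusted p = 0.0224). It was also called with the library set as a term (0.33, adjusted p = 0.00843) and with a filter of 5 FPKM (0.25, adjusted p = 0.0474).

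Rps27 and Rps29, zinc-binding proteins of the small subunit, stayed near the control level while their neighbours rose. Rps27 was at 2477, 2253 and 2599.9 FPKM with CpG-A, at 2441, 2526 and 2802 with CpG-B and at 2550.2, 2312 and 2204 with CpG-C, against 2740.5, 2699 and 2735 in the controls. All CpG-A and CpG-C libraries lay below the controls and the CpG-B libraries overlapped them. Its log2 changes were -0.16 ± 0.09, -0.08 ± 0.09 and -0.21 ± 0.09 (adjusted p = 0.150, 0.468 and 0.0535), and the last was called lower without CpG-C library 1 (-0.27, adjusted p = 0.0334). With libraries rescaled to a common sum, Rps27 was called lower with all 3 classes, at -0.30, -0.37 and -0.47. Rps29 was at 1147, 1229 and 1291 FPKM with CpG-A, 1091, 1205 and 1342 with CpG-B and 1145, 1160.1 and 1166 with CpG-C, against 1055, 1194 and 1104 in the controls, and its changes were 0.13 ± 0.09, 0.11 ± 0.09 and 0.05 ± 0.09 (adjusted p = 0.228, 0.262 and 0.609).

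Relative to the family itself, with each library divided by the geometric mean of the members, Rps27 changed by -0.68, -1.08 and -1.098 and Rps29 by -0.39, -0.89 and -0.83 on the log2 scale with CpG-A, CpG-B and CpG-C, all called. On that scale 14 members were higher and 15 lower with CpG-A, 26 and 22 with CpG-B, and 23 and 23 with CpG-C, against 7.92% and 68.6%, 6.77% and 82.5%, and 7.53% and 80% of all rows. Higher calls made up 10.4%, 7.59% and 8.60% of all calls on that scale. Dividing by the members centres them near 0 by construction, so their near-even split and the many lower calls of all rows are not results in themselves. Rps18 (1.15 and 1.097), Rpl41 (0.60 and 0.66) and Rpl3 (0.52 and 0.42) were among those above the family with CpG-B and CpG-C. Members thus changed by unequal amounts. Across the 81 genes, which share their libraries and are not independent, Spearman's rho of the log2 change with transcript length was -0.04 to 0.11 over the 6 comparisons. With mean FPKM it was -0.01, 0.10 and 0.08 for CpG-A, CpG-B and CpG-C against the control, 0.25 and 0.23 for CpG-B and CpG-C over CpG-A, and -0.18 for CpG-C over CpG-B.

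Rpl35a was at 135, 123 and 316 FPKM with CpG-A, 145, 167 and 186 with CpG-B and 164, 142 and 159 with CpG-C, against 86.2, 207 and 224 in the controls. Its groups overlapped and no change was called, at 0.13 ± 0.37, 0.06 ± 0.37 and -0.03 ± 0.37. The high values in CpG-A and the control were those of the library set, and with the set as a term Rpl35a was called higher with CpG-B (0.92, adjusted p = 3.1e-05) and CpG-C (0.84, adjusted p = 6.49e-05), as it was without the 3 libraries (0.93 and 0.84).

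Rpl26, which sits at the exit of the nascent chain and in human cells binds p53 mRNA, had the widest spread within a group. It was listed at 2.65, 4.12 and 9.61 FPKM with CpG-A, 1.36, 0.86 and 2.65 with CpG-B and 1.6, 1.12 and 2.9 with CpG-C, against 3.18, 7.90 and 5.15 in the controls. No library of these 2 groups reached a control library. Changes of -1.28 ± 0.40 with CpG-B and -1.14 ± 0.40 with CpG-C were called (adjusted p = 0.0113 and 0.0206), and neither held with the library set as a term (-0.57 and -0.43, adjusted p = 0.160 and 0.284) or without control library 2 (-1.01 and -0.87, adjusted p = 0.0590 and 0.0973). The CpG-C call was also lost without CpG-C library 1 (-1.09, adjusted p = 0.0516) or 2 (-0.94, adjusted p = 0.0758).

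Paralogs were set beside their partners, and no test of a paralog against its partner was made. Rps27l, which in human cells is a target of p53, was at 73.7, 72.2 and 93.4 FPKM with CpG-A, 70.0, 76.1 and 103 with CpG-B and 72.7, 78.8 and 115 with CpG-C, against 27.2, 32.2 and 33.0 in the controls. Every ODN library stood above every control library, and library 3 was the highest in each ODN group. Its log2 changes were 1.34 ± 0.18, 1.39 ± 0.18 and 1.48 ± 0.18 (adjusted p = 5.52e-05, 1.84e-05 and 1.08e-05), the first being the highest of all members with CpG-A. The ratio of Rps27l to Rps27 FPKM was 0.0326 ± 0.00314 in CpG-A cells, 0.0319 ± 0.00431 in CpG-B cells and 0.0383 ± 0.0125 in CpG-C cells, against 0.0113 ± 0.0012 in the controls (SD, n = 3 each). No ODN library overlapped a control library in this ratio, whose denominator is placed at a copy as described above.

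Rpl22l1, the paralog of Rpl22, rose to 282 ± 14.4 FPKM in CpG-A cells, 425 ± 78.9 in CpG-B cells and 431 ± 41.9 in CpG-C cells, against 193 ± 22.5 in the controls, and Rpl22, known for its part in lymphocyte development, to 179 ± 8.60, 271 ± 11.2 and 245 ± 3.20, against 131 ± 17.2. The ratio of Rpl22l1 to Rpl22 FPKM was 1.57 ± 0.0654, 1.56 ± 0.228 and 1.76 ± 0.171 with the 3 classes, against 1.48 ± 0.0388 in the controls. All CpG-C libraries lay above the controls in this ratio (1.65 to 1.96 against 1.45 to 1.52), while CpG-A and CpG-B libraries overlapped them. Rpl7l1, named for its likeness to Rpl7 and known from its yeast counterpart as an assembly factor and not a part of the ribosome, was at 68.7, 66.7 and 66.4 FPKM with CpG-A, 55.1, 57.0 and 60.5 with CpG-B and 56.7, 55.8 and 67.6 with CpG-C, against 43.1, 40.2 and 40.3 in the controls. It rose in all 3 classes, by 0.69 ± 0.08, 0.47 ± 0.08 and 0.53 ± 0.08, and was highest with CpG-A, while Rpl7 changed by 0.53 ± 0.08, 0.82 ± 0.08 and 0.68 ± 0.08.

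Rpl10l, the testis form of Rpl10, was listed at 0.41, 0.09 and 0.09 FPKM with CpG-A, 0.04, 0.12 and 0.08 with CpG-B and 0.00, 0.08 and 0.12 with CpG-C, against 1.63, 1.73 and 1.09 in the controls. Every ODN library was below every control library, and the changes of -1.05 ± 0.14, -1.19 ± 0.14 and -1.21 ± 0.14 were called. Only the 3 control libraries exceeded the limit of 1 FPKM, so Rpl10l was tested only because its controls were high. Its separation and its lower calls are therefore not results in themselves. It was the 1 lower member with CpG-A and 1 of the 2 with CpG-B and with CpG-C. Rps4x, Rpl39 and Rpl7, partners of other paralogs, rose in all classes, with changes of 0.34 ± 0.08, 0.63 ± 0.08 and 0.53 ± 0.08 with CpG-A and 0.72 ± 0.08, 1.19 ± 0.08 and 0.82 ± 0.08 with CpG-B. The CpG-A call of Rps4x was lost without the 3 libraries of the set (0.38, adjusted p = 0.0629) and with no filter on low values (0.34, adjusted p = 0.0520).

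**Figure D4:**
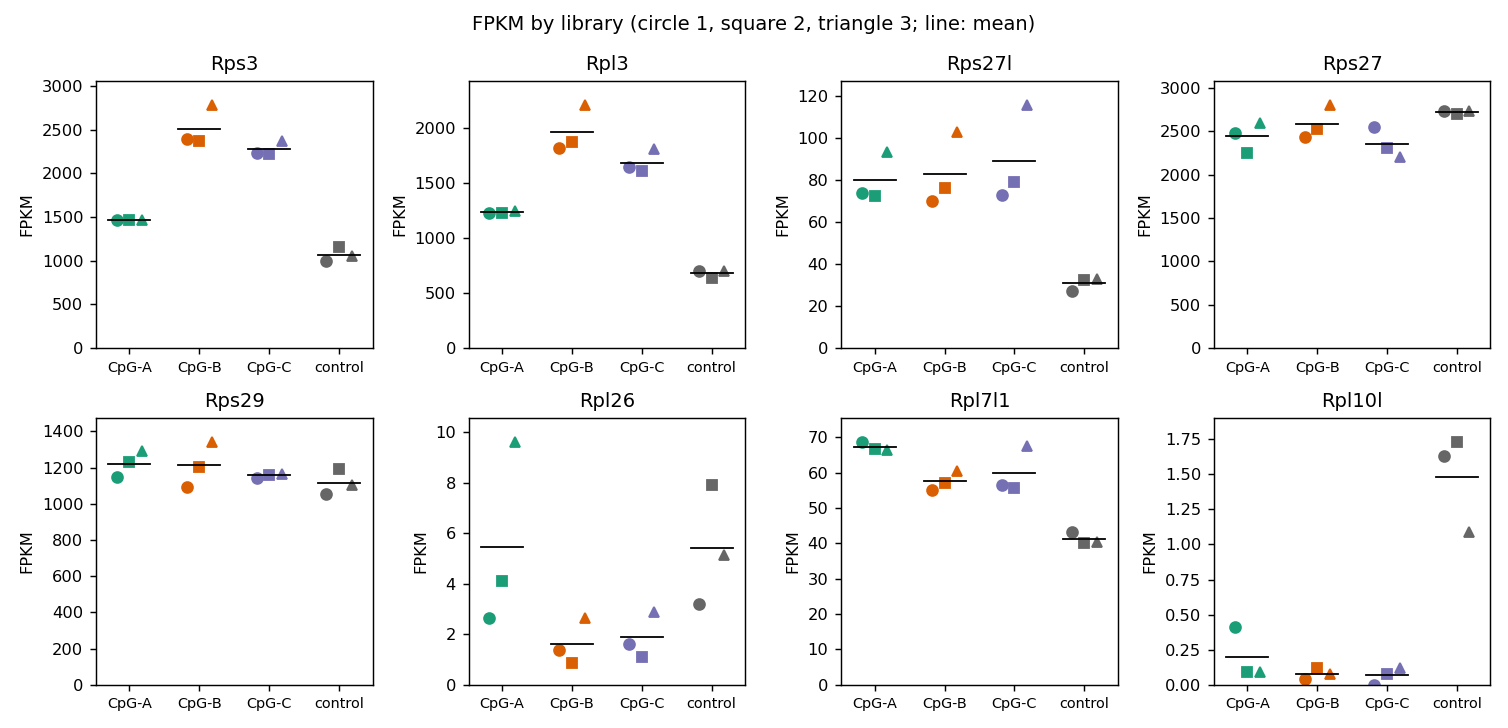
FPKM (y axes, from 0) in each library of the 4 groups (x axes), with the group mean as a line, for 2 typical members (Rps3, Rpl3), 3 paralogs or relatives (Rps27l, Rpl7l1, Rpl10l) and 3 members that were not called higher in any class (Rps27, Rps29, Rpl26). Rps3 stands at 2368 to 2780.1 with CpG-B against 998 to 1161 in the controls, while Rps27 stands at 2441 to 2802 with CpG-B against 2699 to 2740.5 in the controls.

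CpG-B and CpG-A differed in the family directly. Of the members, 66 were higher and 2 lower with CpG-B than with CpG-A, against 13.1% higher and 31.5% lower of all rows and 17.7% and 29.2% of known genes, with a median log2 change of 0.54 against -0.24 over all rows and -0.11 over known genes. Medians were 0.56 for the large and 0.51 for the small subunit. Higher calls made up 29.4% of all calls, and 58.6%, 43.1% or 17.4% with rescaling by median of ratios, upper quartile or a common sum, with 73, 71 and 55 members higher. The members' medians were then 0.78, 0.65 and 0.38, against -0.06, -0.17 and -0.32 over all rows. In 66 members, and 17.1% of all rows, all CpG-B libraries lay above all CpG-A libraries. On the scale of the family, 13 members were higher and 7 lower, against 4.48% and 63.9% of all rows, and 6.56% of calls were higher. The set term gave 72 members higher and 2 lower, and without the 3 libraries 73 were higher and 0 lower.

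Rpl41 (1.01 ± 0.17), Rps18 (1.00 ± 0.27), Rpl36 (0.97 ± 0.18) and Rps19 (0.83 ± 0.08), the last known for its mutation in human Diamond-Blackfan anaemia, had the highest changes with CpG-B over CpG-A. Rps19 was at 2122, 2140.3 and 2436 FPKM with CpG-B, against 1309.5, 1226 and 1234 with CpG-A, and Rpl36 at 1048, 1119 and 1255 with CpG-B, against 633, 419 and 732 with CpG-A. The groups were far apart in both genes. The 2 lower members were Rpl26 (-1.21 ± 0.40, adjusted p = 0.0296) and Rpl7l1 (-0.22 ± 0.08, adjusted p = 0.0403). Rpl7l1 turned to 0.01 with rescaling by median of ratios and its call was lost without any 1 of CpG-A libraries 1, 2 and 3 and CpG-B libraries 1 and 2 (-0.23 to -0.19, adjusted p = 0.0691 to 0.119). That of Rpl26 was lost without CpG-A library 2 or 3 (-1.30 and -0.78) or CpG-B library 1 or 2 (-1.16 and -0.99). Rps27l was at about the same level in both (0.05 ± 0.18, 95% interval -0.35 to 0.45).

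CpG-C likewise exceeded CpG-A, by less. Of the members, 55 were higher and 0 lower, against 11.4% higher and 29.3% lower of all rows and 15.4% and 24.3% of known genes, with a median log2 change of 0.40 against -0.22 over all rows and -0.10 over known genes. Of all members 61 passed an unadjusted p under 0.05, 60 of them higher and 1 lower. Higher calls made up 28.1% of all calls, and 56.3%, 40.4% or 17.7% with the 3 rescalings, with 68, 61 and 48 members higher. The members' medians were then 0.62, 0.49 and 0.28, against -0.05, -0.16 and -0.29 over all rows. Libraries did not overlap, with CpG-C above, in 65 members and 15.6% of all rows. On the scale of the family, 12 members were higher and 7 lower, against 4.52% and 58.5% of all rows, and 7.17% of calls were higher. The set term gave 65 members higher, and leaving out the 3 libraries 61. Rpl41 (0.95 ± 0.17), Rps18 (0.82 ± 0.27), Rps6 (0.74 ± 0.19) and Rpl36 (0.72 ± 0.18) had the highest changes. The call of Rps18 was lost without any 1 library of CpG-C or without CpG-A library 2 or 3 (0.64 to 0.89, adjusted p = 0.0587 to 0.101), and that of Rplp2 (0.36 ± 0.11) without CpG-A library 1 or 2 or CpG-C library 1 or 2 (0.30 to 0.36, adjusted p = 0.0579 to 0.0929). Rpl26 and Rpl7l1 had the lowest changes and were not called (-1.07 ± 0.40 and -0.17 ± 0.08, adjusted p = 0.0503 and 0.104). Rpl26 was called lower without CpG-A library 1 (-1.41, adjusted p = 0.0299) or CpG-C library 3 (-1.31, adjusted p = 0.0374), and Rpl7l1 without CpG-C library 3 (-0.25, adjusted p = 0.0114).

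CpG-C and CpG-B were close. In limma's test 0 of 81 members were called either way, against 0.114% higher and 0.0694% lower of all rows and 0.166% and 0.0921% of known genes, and at an unadjusted p under 0.05 there were 7 members lower and 0 higher, against 3.07% lower and 2.69% higher of all rows. The median log2 change was -0.13, 74 members lay below 0 and 7 above, and in 35 all CpG-C libraries lay below all CpG-B libraries, which held for 7.74% of all rows. The median half-width of the 95% interval was 0.22, so smaller differences could not be told from 0 at this spread. Rps14, a protein of the small-subunit platform, was at 1384, 1239.8 and 1375 FPKM with CpG-C, against 1522, 1536 and 1788 with CpG-B (-0.27 ± 0.10, adjusted p = 0.644). The lowest other values were those of Rpl5 (-0.30 ± 0.21), Rpl36 (-0.25 ± 0.18) and Rpl34 (-0.24 ± 0.09), and the highest those of Rpl26 (0.14 ± 0.40), Rps27l (0.09 ± 0.18), Rps6 (0.06 ± 0.19) and Rpl7l1 (0.06 ± 0.08).

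The replicate numbers paired the CpG-C and CpG-B libraries, and CpG-C lay below CpG-B in 55, 70 and 77 of 81 members in pairs 1, 2 and 3, with medians of -0.05, -0.08 and -0.25. CpG-B library 3 held the highest value of its group in 77 members, with a median log2 difference of 0.22 from the other 2, so pair 3 carried most of the difference. With the number as a block in these 2 groups alone, 12 members were lower and 0 higher at an unadjusted p under 0.05, against 9.44% of all rows lower, and 0 passed adjustment (lowest adjusted p = 0.188).

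The rest of the translation machinery was followed in lists chosen with earlier results of these data known. Their counts stand beside 23.6%, 25.7% and 26.1% of all rows higher and 42.1%, 51.8% and 51.3% lower with CpG-A, CpG-B and CpG-C against the control, and no test of a list was made. The 4 measured genes of the ribosome with other symbols included Rack1, a scaffold on the small subunit, Fau, which makes Rps30 as a fusion, and Rpl36al, a paralog of Rpl36a. They were called higher in 3, 4 and 4 cases with CpG-A, CpG-B and CpG-C, with medians of 0.40, 0.84 and 0.66. Rack1 rose to 1327 ± 90.5 FPKM in CpG-A cells, 2017 ± 211 in CpG-B cells and 1787 ± 37.0 in CpG-C cells, against 861 ± 27.8 in the controls. Fau did not pass with CpG-A (-0.03 ± 0.08) and changed by 0.53 ± 0.08 and 0.37 ± 0.08 with CpG-B and CpG-C.

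The list of elongation factors, which took in Eif5a and Eef1e1, had 7 of 7 genes higher in each class against the control. With CpG-B over CpG-A, 4 were higher and 2 lower, against 13.1% and 31.5% of all rows. Eef2, which moves the ribosome along, was higher with CpG-B (0.79 ± 0.07, 3026 ± 120 FPKM against 1746 ± 31.3). Eif5a, which relieves stalled ribosomes, was lower (-0.76 ± 0.22, 392 ± 116 FPKM against 648 ± 7.07). Of 34 initiation factors, 31 were higher and 1 lower with CpG-A, 27 and 2 with CpG-B and 28 and 2 with CpG-C against the control, with medians of 0.62, 0.63 and 0.61. Eif4a1, the helicase that opens mRNA leaders, had the highest change with CpG-A (1.29 ± 0.15), while Eif4a2, its paralog, fell in all classes (-0.38 ± 0.08, -1.04 ± 0.08 and -1.02 ± 0.08). With CpG-B over CpG-A, 7 of the 34 initiation factors were higher and 10 lower, against 13.1% and 31.5% of all rows, with a median of -0.14 against -0.24 over all rows, so the lower calls were near the share of all rows. The extremes there were Eif3h at 0.57 ± 0.07 and Eif2b3 at -0.74 ± 0.14.

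Of 19 other mRNAs with known TOP tracts, 16, 18 and 18 were higher and 0 lower with CpG-A, CpG-B and CpG-C against the control, with medians of 0.58, 1.02 and 0.93. With CpG-B over CpG-A, 12 were higher and 0 lower, against 13.1% and 31.5% of all rows. Eef2 was highest and Npm1, a nucleolar chaperone, lowest (-0.22 ± 0.18, not called). Tpt1 did not pass in any class against the control (0.02 ± 0.08, 0.16 ± 0.08 and 0.14 ± 0.08). This list shares 5 genes with the elongation factors, 7 with the initiation factors, 4 with the genes of other symbols and 1 with the chaperones and importers. Among members, those whose window held a pyrimidine run of at least 8 bases had median changes of 0.53, 1.13 and 0.99 in the 3 classes (47 genes) and those without one 0.46, 1.03 and 0.92 (14 genes).

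Of 14 regulators of TOP mRNAs and of mTORC1, 3 were higher and 0 lower with CpG-A, and 2 were higher and 3 lower with CpG-B and with CpG-C, against the control. The higher calls were thus near the share of all rows with CpG-A and below it with the other classes. Larp1, which binds the TOP tract, was higher in all classes (0.76 ± 0.13, 0.51 ± 0.13 and 0.55 ± 0.13). Eif4ebp1, a translation repressor released by mTORC1, had the highest change with CpG-B and CpG-C (1.90 ± 0.26 and 1.70 ± 0.26; 0.47 ± 0.26 with CpG-A, not called), and Pdcd4, an inhibitor of eIF4A, the lowest (-1.51 ± 0.20 and -1.40 ± 0.20; -0.16 ± 0.20 with CpG-A, not called). Of 5 genes of the p53 and MDM2 axis, 3, 2 and 2 were higher and 1 lower in each class. Cdkn1a, a p53 target that slows the cell cycle, reached 2.86 ± 0.355 FPKM in CpG-A cells, 10.7 ± 0.656 in CpG-B cells and 7.35 ± 0.391 in CpG-C cells, against 1.46 ± 0.211 in the controls. Cdkn2a changed most with CpG-C (2.40 ± 0.21), and Mdm4, an inhibitor of p53, fell (-0.48 ± 0.17, -0.91 ± 0.17 and -0.93 ± 0.17).

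Of 11 chaperones and importers of ribosomal proteins, 9 were higher in CpG-A cells, 6 in CpG-B cells and 6 in CpG-C cells against the control, and 0 were lower. With CpG-B over CpG-A 0 were higher and 6 lower (median -0.44), against 13.1% and 31.5% of all rows (median -0.24). With CpG-C over CpG-A 0 were higher and 4 lower, against 11.4% and 29.3% of all rows, and the 4 became 2 with the set term and 0 without its libraries. Grwd1, the chaperone of Rpl3, was at 13.9 ± 3.76 FPKM with CpG-B, against 25.9 ± 1.01 with CpG-A (-0.88 ± 0.24). Ipo5, an importer, had the highest change against the control, 1.40 ± 0.16 with CpG-A. Of 11 factors of ribosome rescue and of inactive ribosomes, 7, 5 and 6 were higher and 1, 2 and 2 lower in the 3 classes, with Serbp1, which holds idle ribosomes, at 0.84 ± 0.14 with CpG-A and its relative Habp4 at -0.60 ± 0.08, -1.19 ± 0.08 and -1.25 ± 0.08. Between CpG-C and CpG-B, 0 genes of any of these lists were called by limma. With the set as a term, 3 regulators, 3 genes of the p53 and MDM2 axis, 9 chaperones and importers and 7 rescue factors were higher with CpG-A against the control. Without the 3 libraries of the set, the medians of these lists with CpG-A were 0.06, 0.38, 0.60 and 0.47, against 0.09, 0.39, 0.54 and 0.48 with all libraries. With CpG-B the set term left 4 rescue factors higher in place of 5. Without the 3 libraries, 0 elongation factors were lower with CpG-B over CpG-A in place of 2.

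Mitochondrial ribosomal proteins, encoded in the nucleus for a separate ribosome, were mostly higher in each class than in the control. Of 77 such genes, 67, 64 and 61 were higher and 1, 2 and 2 lower with CpG-A, CpG-B and CpG-C, with medians of 0.56, 0.60 and 0.58. With the set as a term, 67, 59 and 61 were higher, and without the 3 libraries of the set the medians were 0.60, 0.67 and 0.60. With CpG-B over CpG-A, 9 were higher and 3 lower, against 13.1% and 31.5% of all rows, with a median of 0.01, while 66 of the 81 cytosolic members were higher, with a median of 0.54. With CpG-C over CpG-A, 7 mitochondrial genes were higher and 2 lower, against 11.4% and 29.3% of all rows, with a median of 0.01, and 55 cytosolic members were higher, with a median of 0.40. Mrpl45 had the highest change with CpG-B over CpG-A (0.85) and Mrpl39 the lowest (-0.71). No test of the difference between the 2 families was made.

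**Figure D5:**
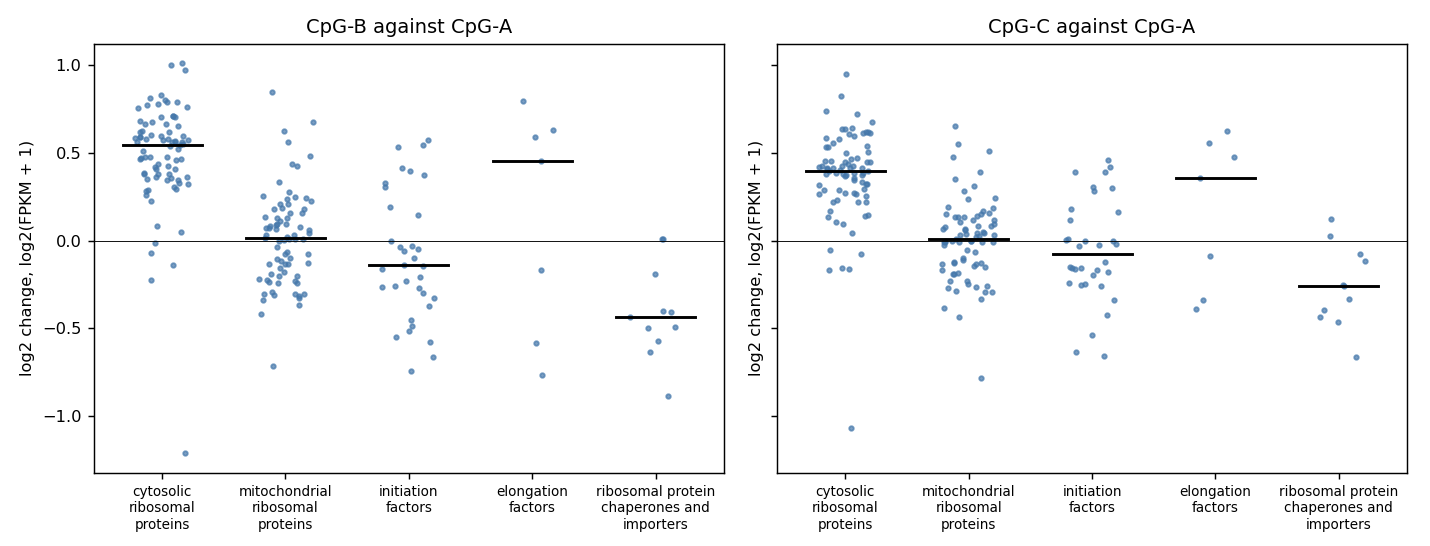
log2 change of CpG-B against CpG-A (left) and of CpG-C against CpG-A (right) on the log2(FPKM + 1) scale (y axes) for the genes of 5 groups (x axes), each a point, with the median as a line. Cytosolic ribosomal proteins have medians of 0.54 and 0.40, mitochondrial ones of 0.01 and 0.01, and chaperones and importers of -0.44 and -0.26.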

How the data were processed

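RNA of 12 libraries, 3 for each of 4 groups, was measured by sequencing with DNBSEQ libraries, per the labels' protocols. The table deposited by the authors holds FPKM per library with 2 decimals, per the file headers, and gene positions and lengths in other columns. Without role or order, the submitters' processing notes list RSEM 1.2.8, Bowtie2 2.2.5, StringTie, HISAT, GATK and the build mm10. Use of the strand in counting is not stated there. The table has 28021 entries, of which 2 without a gene were dropped. FPKM is relative to each library's own total, so a rise of a family that holds a large share lowers all others.

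The test took the 15853 entries above 1 FPKM in 3 or more libraries, of which 10860 are known genes, with limma's trend method on log2(FPKM + 1), a scale that understates changes of low genes. A single fit with 4 group means used all 12 libraries. Adjustment followed Benjamini and Hochberg over all rows tested in a comparison, and a change was called at an adjusted p under 0.05. The step was tested on simulated data. Levels are means ± SD over 3 libraries, log2 changes carry ± SE, and folds are ratios of mean FPKM. Members and lists were chosen with earlier results of these data known. Named are a fixed set of members and paralog partners, the 4 highest and 4 lowest changes of each comparison, the member with the widest spread in a group, and the extreme genes of the other lists. Some genes are not reported by name here.

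Depth was estimated from steps of low FPKM, since 93.1% to 96.7% of low values lay within 0.2 of a whole fragment at an assumed effective length. It is an estimate, and no counts were recovered. The design provided a count test only for counts, which the table does not hold. Alternatives were scaling, pseudocount, filter, the genes and groups in the fit, a replicate block and leaving out libraries. More were added after the data were seen: the library set as a term, the fit without its libraries, and CpG-B and CpG-C alone with a block.

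Deviations from the group mean correlated at 0.594, 0.538 and 0.745 between same-numbered CpG-B and CpG-C libraries, each over 0.1, so the numbers pair these 2 groups; the labels give no reason for it. Over all 18 same-numbered pairs the correlation ran from -0.129 to 0.745 and exceeded 0.1 in 5. Sequences come from RefSeq (GRCm38.p6) and were matched by gene ID. The fits ran in R 4.3.3 (limma 3.58.1), and the other steps and figures used pandas 2.3.3, matplotlib 3.10.9 and Python 3.11.15.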

Additional observations from a re-analysis of the deposited data

Results flagged for a closer look

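Ribosomal protein copies outside the 81 members gave signal above the control mean. Rpl31-ps12 averaged 121 FPKM with CpG-B and 126 with CpG-C, against 39.9 in the controls. Rpl34-ps1 averaged 80.3 FPKM with CpG-B and 75.8 with CpG-C, against 13.7 in the controls. Rpl37rt averaged 94.9 FPKM with CpG-B and 98.3 with CpG-C, against 16.7 in the controls. Control library 1, which is outside the set of 3 libraries that stand apart, held 81.2, 35.6 and 48.2 FPKM of these 3 genes, and control libraries 2 and 3 at most 27.7, 3.07 and 1.19. Sharing of reads with the parent genes was not tested.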

How the results depend on the processing

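Members higher stayed within 1.5 times of the counts given above under every alternative except member scaling (each library divided by the geometric mean of the members), with 14 for CpG-A and 26 for CpG-B and 23 for CpG-C against the control, 13 for CpG-B and 12 for CpG-C against CpG-A, and 34 for CpG-C against CpG-A with no filter. Leaving out each library in turn gave 59 to 70 for CpG-A, 73 to 76 for CpG-B and 72 to 73 for CpG-C against the control, and 55 to 71 for CpG-B and 41 to 58 for CpG-C against CpG-A. Members lower became 15 for CpG-A, 22 for CpG-B and 23 for CpG-C against the control and 7 for CpG-B and 7 for CpG-C against CpG-A under member scaling. With CpG-A against the control they were 2 with upper-quartile scaling, 2 with TPM scaling (a common sum) and 0 with a filter of 5 FPKM, and 1 to 1 with a library left out. With CpG-B against the control they were 4 with TPM scaling, 1 with the filter of 5, 1 with the set term, 1 without its libraries and 1 to 2 with a library left out. With CpG-C against the control they were 1 with median-of-ratios scaling, 4 with TPM scaling, 1 with the set term, 1 without its libraries and 1 to 2 with a library left out. With CpG-B against CpG-A they were 0 with median-of-ratios scaling, 1 with upper-quartile scaling, 0 with no filter, 0 without the set's libraries and 0 to 2 with a library left out. With CpG-C against CpG-A they were 2 with TPM scaling, 1 with a pseudocount of 0.1, 1 with known genes only, 1 with the replicate block and 0 to 2 with a library left out. The cause was not tested.

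The replicate block gave 70, 76 and 75 members higher against the control and 69 and 63 against CpG-A, and 0 between CpG-C and CpG-B. Beyond the lower call of Rpl26 with CpG-C over CpG-A (adjusted p = 0.0177), it made Rplp2 with CpG-A (adjusted p = 0.0461) and Rpl10 with CpG-C over CpG-A (adjusted p = 0.0117) called, and lost no call of a named gene. Of 12 libraries, 9 correlated best with their own number.

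By construction member scaling reads changes against the family, and these named values turned there. With CpG-A against the control these were Rps3 -0.0607, Rpl13a -0.23, Rps15a -0.0773, Rpl22 -0.0531 and Rps4x -0.17. With CpG-B they were Rpl5 -0.24, Rplp2 -0.28, Rpl13a -0.00861, Rpl7l1 -0.51, Rpl7 -0.18 and Rps4x -0.28. With CpG-C they were Rplp2 -0.27, Rpl7l1 -0.34, Rpl7 -0.21 and Rps4x -0.26. With CpG-B over CpG-A they were Rplp2 -0.0144, Rpl10 -0.0527, Rpl7 -0.20 and Rps4x -0.11, and with CpG-C over CpG-A Rplp2 -0.0119 and Rps4x -0.0834. Rpl7l1 with CpG-B over CpG-A turned to 0.0140 with median-of-ratios scaling. The median over all rows, for CpG-B against the control, was -0.31, and -0.10, -0.57 and -1.19 under median-of-ratios, TPM and member scaling. Depth was lowest in the controls, and the median 95% half-width of a member's log2 change was 0.22.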
